A study of Mus musculus with 9 samples.

Results

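Bone marrow cells that expressed *Car1* and *Klf1* but little of the later red cell genes, referred to here as early erythroid progenitors, were examined in single cell RNA sequencing of 9 female mice. A barcode was counted as an early erythroid progenitor when it held at least 3 UMIs (unique molecular identifiers, each standing for 1 captured RNA molecule) of *Car1*, at least 1 of *Klf1*, at most 2 of *Slc4a1* and *Alas2* together, and 0 of the B-cell gene *Cd79a*. This rule gave 1348 of the 39051 barcodes kept after quality control (3.45%). The mice were 3 each of NZB, NZW, and NZBWF1, 9 to 10 weeks old, and the labels name no treatment. NZBWF1 is the F1 cross of an NZW female and an NZB male, and develops a lupus-like disease at an older age than was sampled. Red blood cells had been lysed during preparation of the marrow, and 1 library was made per mouse. The mice of a strain share 1 genotype, so that the spread between them is that between separate animals.

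Red cells form in the marrow from progenitors that first depend on the receptor tyrosine kinase Kit and then on the erythropoietin receptor. The transcription factors Gata1 and Klf1 switch on genes for heme synthesis, iron uptake, globin, and the membrane skeleton. Carbonic anhydrase 1, the product of *Car1*, is an early mark of commitment in the mouse, whereas band 3 (*Slc4a1*) and the erythroid 5-aminolevulinate synthase (*Alas2*) rise later, with hemoglobin. *Car1* and *Klf1* chose the cells, and their levels are a description. The median *Car1* count was 42 UMIs per progenitor (quartiles 22 and 66, highest 217) and that of *Klf1* was 4. *Ermap*, an erythroblast membrane protein that the rule did not use, had a UMI in 91.5% of the progenitors and in 2.35% of the other kept barcodes, at median depths of 10290 and 2253 UMIs. All of the 12 early erythroid marker genes listed for the cells, rule genes included, were higher in them than in the other barcodes of the same library in 9 of 9 mice. Of the 11455 genes that reached a minimum mean level over both sets of barcodes, 34.9% were higher in 9 of 9 mice. Since rule genes chose the cells, the count of markers is a description too.

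The libraries held 31 to 267 early erythroid progenitors, with 407327 to 2469726 UMIs summed per mouse, and NZBWF1 mouse 1 was the smallest on both counts. Median UMIs per progenitor were 7669 to 14122 over the mice. The 8 neutrophil markers summed to between 3879 and 10258 CPM (the UMIs of a gene scaled to the same total in every mouse) in the progenitors of 8 mice, and to 135 CPM in NZBWF1 mouse 1. Free RNA in the droplets, estimated from 7 neutrophil transcripts, was 0.149% to 13% of the progenitor UMIs. Markers of granulocyte-monocyte precursors summed to 7.37 to 348 CPM, and B-cell markers to 2.25 to 18.3 CPM. Barcodes with the highest doublet scores were 90 of the progenitors (6.68%), and the sequence of 10 progenitor barcodes also occurred in another library.

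Promoter sequences are shown for 5 genes that were high in the progenitors, because Gata1 binds DNA with a GATA core and Klf1 binds CACCC boxes. *Klf1*, *Ermap*, the erythropoietin receptor gene *Epor*, the repressor gene *Gfi1b*, and the Rh blood group gene *Rhd* were chosen, after the matches had been seen, among the genes whose entries held both motifs. Each line gives the bases upstream of the RefSeq start site in GRCm38.p6 (mm10), 5′ to 3′ along the gene, with bases inside the annotated gene left out. Capitals mark GATAA or CACCC, or their reverse complements TTATC and GGGTG.
Klf1 (chr8:84901732-84901927, strand +): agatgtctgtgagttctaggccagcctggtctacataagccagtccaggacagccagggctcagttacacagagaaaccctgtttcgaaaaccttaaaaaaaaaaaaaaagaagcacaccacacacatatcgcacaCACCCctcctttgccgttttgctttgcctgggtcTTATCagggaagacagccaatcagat
Ermap (chr4:119190012-119190245, strand -): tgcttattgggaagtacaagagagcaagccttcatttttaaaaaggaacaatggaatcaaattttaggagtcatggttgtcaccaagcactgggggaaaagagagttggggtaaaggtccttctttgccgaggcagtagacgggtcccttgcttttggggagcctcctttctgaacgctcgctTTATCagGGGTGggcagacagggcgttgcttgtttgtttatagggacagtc
Epor (chr9:21963577-21963826, strand -): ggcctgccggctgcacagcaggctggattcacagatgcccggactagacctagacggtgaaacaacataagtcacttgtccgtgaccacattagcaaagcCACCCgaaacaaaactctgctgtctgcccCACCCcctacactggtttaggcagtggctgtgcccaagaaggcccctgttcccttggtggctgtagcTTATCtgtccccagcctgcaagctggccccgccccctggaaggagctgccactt
Gfi1b (chr2:28621983-28622232, strand -): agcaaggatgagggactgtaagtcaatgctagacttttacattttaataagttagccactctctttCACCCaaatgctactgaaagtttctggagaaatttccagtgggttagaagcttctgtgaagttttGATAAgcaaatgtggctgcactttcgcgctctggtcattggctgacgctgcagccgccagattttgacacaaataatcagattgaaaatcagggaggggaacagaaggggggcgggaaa
Rhd (chr4:134864286-134864535, strand +): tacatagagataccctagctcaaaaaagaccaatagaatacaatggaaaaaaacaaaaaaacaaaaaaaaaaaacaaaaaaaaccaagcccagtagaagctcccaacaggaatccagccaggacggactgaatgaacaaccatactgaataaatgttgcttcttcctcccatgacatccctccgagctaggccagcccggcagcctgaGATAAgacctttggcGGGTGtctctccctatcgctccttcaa
The nearest GATAA match lay 76 bases before the start of *Klf1*, 63 before that of *Ermap*, and 38 before that of *Rhd*. Over the 28 marker and leading genes, 22 had 31 promoter entries of 250 bases. Of these entries, 11 held GATAA (35.5%), 26 held CACCC (83.9%), and 9 held both (29%). The shares over all 32851 mouse promoter entries were 22.6%, 52%, and 10.1%, on either strand. A letter match is not evidence of binding, and several entries belong to the same gene.

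Besides *Car1* and *Klf1*, among genes of at least 100 CPM that were higher in the progenitors in 9 of 9 mice, those most raised over the other kept barcodes included *Mt2*, *Sphk1*, and *Tfr2*. Since the cells were selected by erythroid genes, these levels are given without a test. In CPM, averaged over the 9 mice, the metallothionein gene *Mt2* was at 149 ± 35.5 (SD, n = 9) against 5.05 in other barcodes, and the sphingosine kinase gene *Sphk1* was at 151 ± 14.1 against 5.71. Transferrin receptor 2 (*Tfr2*), which associates with the erythropoietin receptor, was at 103 ± 17.9 against 5.29. Others among the 20 leading genes were *Atp1b2*, *Sdsl*, *Ces2g*, *Slc25a21*, *Tmem56*, *Nfia*, *Ryk*, *Bex4*, *Sept8*, *Myh10*, *Spire1*, *Ermap*, *Col5a1*, *Gfi1b*, and *Epor*. All 20 were between 13.1 and 29.6 times their level in other barcodes. They are not all marks of the early stage alone. In later erythroblasts, defined below, *Mt2*, *Sphk1*, and *Tfr2* were lower, at 23.6, 67.3, and 62.7 CPM. *Slc25a21* (131 CPM in the early progenitors, 142 in later erythroblasts), *Epor* (113, 134), and *Ermap* (374, 474) were higher there. The 12 early erythroid markers, rule genes included, summed to 8490 CPM in the early progenitors and 10670 in later erythroblasts.

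To place the cells along the red cell path, they were set beside 364 less mature barcodes with *Kit* and *Cd34* but without the erythroid rule genes, and beside 538 later erythroblasts with at least 3 UMIs of *Slc4a1* and *Alas2*. The first group was not only erythroid. Its granulocyte-monocyte precursor markers summed to 14484 CPM, against 130 in the early erythroid progenitors and 4939 in other barcodes. Differences from this group therefore mix lineage with stage. The receptor genes differed between the groups. *Epor* was at 1.8 CPM in the *Kit*+ *Cd34*+ barcodes, 113 in the early erythroid progenitors, and 134 in later erythroblasts. *Kit*, which helped choose the least mature group, was at 219, 76.5, and 1.48 CPM in the same order. Among transcription factors, *Gata2*, a factor of stem and early progenitor cells, went from 65.5 through 16.2 to 0.727 CPM, while *Gata1* went from 5.39 through 144 to 178. *Myb* and *Myc*, which keep progenitors dividing, were at 223 and 119.8 CPM in the early progenitors, against 20.7 and 31 in later erythroblasts.

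**Figure D1:**
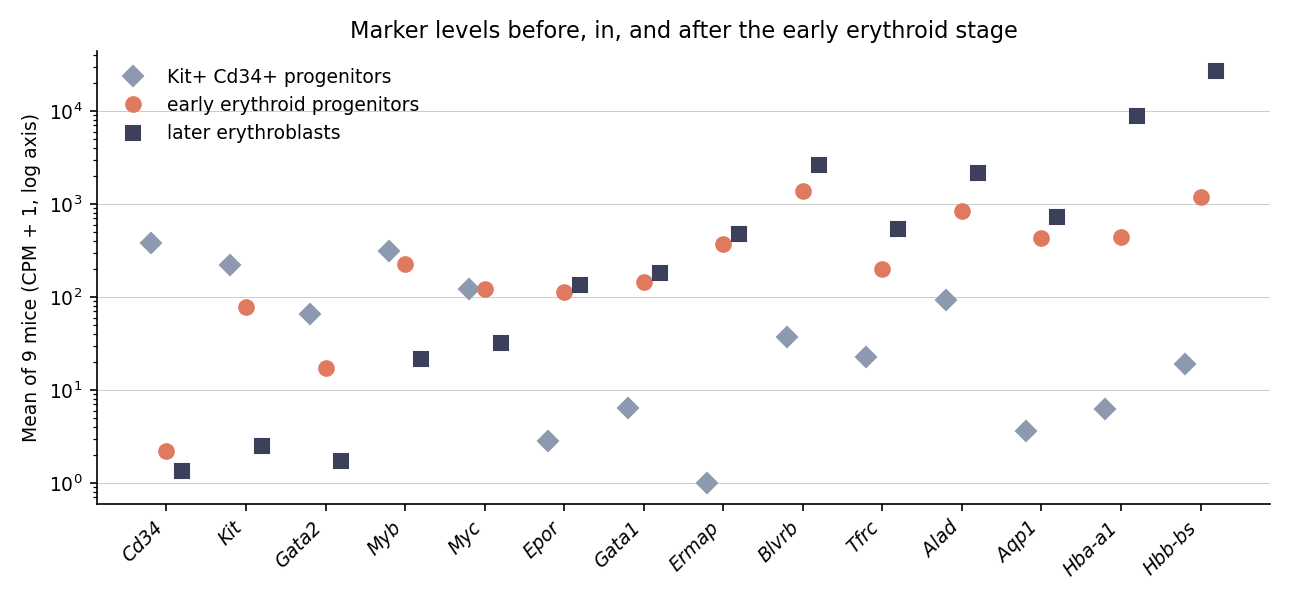
Mean level over 9 mice (CPM + 1, log axis) of 14 genes in *Kit*+ *Cd34*+ progenitors, early erythroid progenitors, and later erythroblasts. *Epor*, *Gata1*, and *Ermap* of the early progenitors lie near the later erythroblasts, *Myb* and *Myc* lie near the less mature cells, and globins lie between.

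Genes of heme synthesis were expressed, whereas globin was at a small part of its later level. The 19 genes of heme synthesis and breakdown summed to 5171 CPM in the early progenitors, 11304 in later erythroblasts, and 1024 in the least mature group. *Alad*, which encodes the enzyme after 5-aminolevulinate synthase, was at 838 CPM. The globin list summed to 1693 CPM against 37869 in later erythroblasts. The adult beta chain *Hbb-bs* was at 1186 ± 603 CPM in the early progenitors, 18.1 in the least mature group of the same libraries, and 1299 over all other barcodes. The share of this globin that came from free RNA was not tested.

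Lists of growth genes and of other lineages were summed as well. All 35 genes of ribosome biogenesis, the assembly of new ribosomes in the nucleolus, were higher in early progenitors than in other barcodes in 9 of 9 mice, as were 34.9% of the 11455 genes with a mean of at least 1 CPM over both. The list summed to 10199 CPM, against 3978 in later erythroblasts and 7208 in the least mature group. Of the 38 genes of S phase and DNA replication, all 38 were higher in 9 of 9 mice, with a sum of 6708 CPM. Later erythroblasts had more, at 10617 CPM. Markers of stem and multipotent cells summed to 175 CPM against 1648 in the least mature group, which was in part chosen by them. Megakaryocyte markers, for the sister lineage, summed to 103 CPM against 402 in other barcodes. Interferon-stimulated genes were also low, at 1673 against 4516 CPM.

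The cells varied among themselves along the same path. The limit on *Slc4a1* and *Alas2* split them into 1109 barcodes with 0 UMIs of these genes and 239 with 1 or 2, and 216 barcodes with 3 to 5 lay just outside. Over these 3 classes, *Kit* was at 83.1, 11.9, and 2.39 CPM, and *Hbb-bs* at 453, 6278, and 14672 CPM. The transferrin receptor gene *Tfrc*, through which erythroid cells take up iron, was at 179.9, 325, and 411 CPM, and the proliferation gene *Mki67* at 552, 1004, and 1357. *Ermap* varied less, at 358, 406, and 423 CPM. At the *Car1* limit, the 19 progenitors with 3 UMIs had *Ermap* at 197 CPM and the 26 barcodes with 2 UMIs just outside had it at 422 CPM, at median depths of 4961 and 4129.5 UMIs. RNA of other lineages was also found at the edges of the rule. The neutrophil gene *S100a8* was at 11948 CPM with 3 *Car1* UMIs, 2340 with 2, and 1299 with at least 20. The 14 progenitors with 4 had *S100a8* at 195 CPM but the granulocyte-monocyte precursor gene *Elane* at 1025. The 188 progenitors with 1 *Klf1* UMI had these genes at 6102 and 259 CPM, against 1292 and 22.5 with at least 2. These classes pool cells of 9 mice and were formed by rule genes, so no test applies.

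Whether lupus-prone marrow held more or fewer of these cells was compared over the mice. Early erythroid progenitors made up 3.1%, 5.23%, and 4.81% of kept barcodes in NZB, 1.76%, 4.37%, and 2.97% in NZW, and 1.21%, 4.0%, and 2.57% in NZBWF1. The strains overlapped, with mouse 1 the lowest and mouse 2 the highest of each strain. At each mouse number the share was highest in NZB and lowest in NZBWF1. The labels do not say whether the numbers mark shared handling, and the test here treated the mice as unpaired. The lowest value, from 31 of 2566 barcodes, had a 95% Wilson interval of 0.852% to 1.71%, which covers counting error only. Strain means were 4.38 ± 1.13%, 3.04 ± 1.31%, and 2.59 ± 1.4% (SD, n = 3 mice each; two-sided exact permutation p = 0.268 over 280 partitions, of which the smallest possible p is 0.00357).

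The ratio of early progenitors to later erythroblasts was also counted. Per 100 later erythroblasts there were 292, 494, and 367 early progenitors in NZB, 136, 161, and 139 in NZW, and 155, 308, and 695 in NZBWF1. All NZB mice lay above all NZW mice, with an exact permutation p = 0.1, the smallest that 3 against 3 mice can give. The NZBWF1 mice ran from the NZW values to above those of NZB, and the 3 strains together gave an exact permutation p of 0.186. The later erythroblasts themselves were 1.14 ± 0.145%, 2.05 ± 0.715%, and 0.815 ± 0.465% of kept barcodes in NZB, NZW, and NZBWF1 (SD, n = 3 each; exact permutation p = 0.0321 over all strains), not adjusted for the shares compared here. Red cell lysis acts on the later cells, and its part in this ratio was not tested. The ratios of NZB mouse 1 and NZBWF1 mice 1 and 3 rest on only 26, 20, and 21 later erythroblasts. Early and later cells were split at a raw UMI count, and the ratio was not compared at equal depth. Median UMIs per progenitor averaged 10015 ± 2033 in NZB, 12596 ± 1604 in NZW, and 11873.5 ± 2408 in NZBWF1 (SD, n = 3 each). The part of depth in the ratio was not tested.

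**Figure D2:**
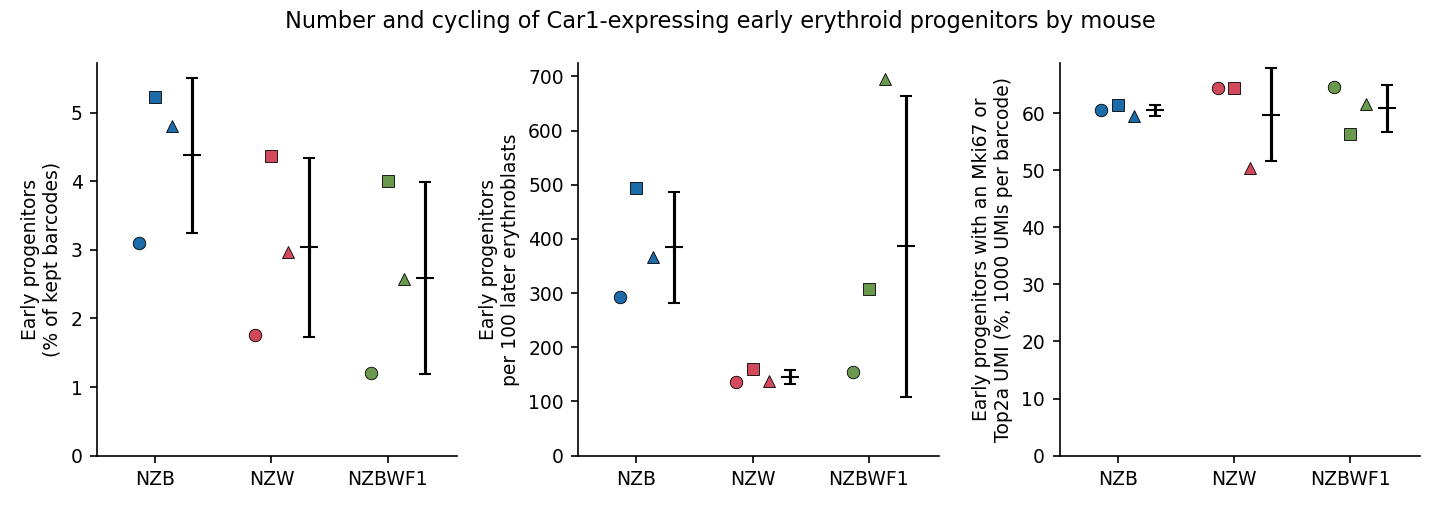
Early erythroid progenitors as percent of kept barcodes, per 100 later erythroblasts, and percent with an *Mki67* or *Top2a* UMI after thinning to 1000 UMIs. Points are mice (circle 1, square 2, triangle 3), bars are mean ± SD of 3 mice; the strains overlap in the left and right panels, and all NZB mice lie above all NZW mice in the middle panel.

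Most of the cells were dividing in each strain. After each barcode was thinned to 1000 UMIs, a UMI of the proliferation genes *Mki67* or *Top2a* was found in 60.5%, 61.4%, and 59.5% of early progenitors in NZB, 64.5%, 64.4%, and 50.3% in NZW, and 64.5%, 56.3%, and 61.6% in NZBWF1. The strains overlapped (means 60.5 ± 0.966%, 59.8 ± 8.15%, and 60.8 ± 4.17%, SD, n = 3 each; exact permutation p = 0.979). Without thinning, the shares were 93.4% to 97.3%. T-cell barcodes of the same libraries, a mostly resting type, gave 3.45% to 17.7% after thinning, and later erythroblasts gave 82.1% to 96.2%. With 3 mice per strain and the mouse numbers not used, no difference between NZBWF1 and its parents in number or in cycling was detected. A comparison within mouse numbers was not tested.

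Gene expression was then compared on UMIs summed per mouse over the early progenitors, with levels given as CPM scaled by TMM (trimmed mean of M-values, a correction for library composition). The parent strains differed most. Of 8472 genes tested, 238 were higher in NZB than in NZW (2.81%) and 287 lower (3.39%), 525 in all (6.2%; edgeR quasi-likelihood test, adjusted p under 0.05), and 210 of these differed by at least 2-fold. NZBWF1 differed from the mean of the parents in 21 genes (0.248%), of which 19 were higher (0.224%) and 2 lower (0.0236%). It differed from NZB in 115 genes (1.36%), 77 of them higher (0.909%) and 38 lower (0.449%), and from NZW in 96 (1.13%), 58 of them higher (0.685%) and 38 lower (0.449%). These comparisons share samples. With DESeq2 the counts were 264, 9, 43, and 42 in the order given, and without NZBWF1 mouse 2 or 3 the count against the mean of the parents was 11 or 12. The median log2 fold change over all genes was within 0.01 of 0 in each comparison.

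Of the early erythroid markers outside the rule, 2 of 10 tested genes passed the test as higher in NZB and 3 as lower (50% of the list in all, against 6.2% of all genes, median log2 fold change -0.11), namely *Ermap*, *Blvrb*, *Rhd*, *Gata1*, and *Add2*. When NZB mouse 2, NZW mouse 2, or NZW mouse 3 was left out, only *Rhd* of these named markers still passed. Red cell surface and membrane skeleton genes were among those that passed between the parents. In this list, 1 of 20 tested genes passed the test as higher in NZB and 4 as lower (25% of the list in all, against 6.2% of all genes, median log2 fold change -0.21). *Rhd* (chr4:134864536-134896172), which carries the Rh antigen, was at 177, 161, and 169.8 CPM per NZB mouse, 312, 341, and 336 per NZW mouse, and 232, 283, and 255 per NZBWF1 mouse. All NZW mice lay above the NZBWF1 mice, which lay above all NZB mice. NZB was lower than NZW (log2 fold change -0.98, SE 0.09, edgeR adjusted p = 5.09e-10), and NZBWF1 was higher than NZB (log2 fold change 0.63, SE 0.10, edgeR adjusted p = 7.64e-05).

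The adducins, which cap actin in the membrane skeleton, were lower in NZB as well, with *Add1* (-0.77, adjusted p = 7.05e-05) and *Add2* (-0.42, adjusted p = 0.0223). *Ermap* went the other way, at 447, 448, and 354 CPM per NZB mouse, 342, 317, and 312 per NZW mouse, and 409.8, 372, and 386 per NZBWF1 mouse, higher in NZB (log2 fold change 0.36, SE 0.10, edgeR adjusted p = 0.0125). The water channel gene *Aqp1* passed in NZBWF1 against NZB (log2 fold change 0.42, SE 0.10, edgeR adjusted p = 0.0249). *Ermap* did not pass without NZB mouse 1 or 2 or NZW mouse 2 or 3 (adjusted p = 0.0793 to 0.124). *Add2* did not without NZB mouse 2 or 3 or NZW mouse 2 or 3 (adjusted p = 0.0719 to 0.153), nor *Aqp1* without NZB mouse 2 or 3 or NZBWF1 mouse 1 or 2 (adjusted p = 0.0651 to 0.252). With DESeq2, *Add2* (0.217) and *Aqp1* (0.0785) did not pass. The share of early progenitors with any UMI of *Slc4a1* or *Alas2*, genes of later stages, was 14.5, 19.1, and 14.6% per NZB mouse, 21.1, 23.6, and 18.4% per NZW mouse, and 19.4, 18, and 8.22% per NZBWF1 mouse, with overlap between NZBWF1 and both parents and between NZB mouse 2 and NZW mouse 3, and no test was run. Among cells with 0 such UMIs the differences between the parents were of like size, -0.92 for *Rhd* and -0.78 for *Add1* on the log2 scale.

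Genes that handle heme were compared next. In the list of heme synthesis and breakdown, 2 of 18 tested genes passed the test as higher in NZB and 1 as lower (16.7% of the list in all, against 6.2% of all genes, median log2 fold change 0.00). *Alad* (chr4:62509169-62519918) was at 629.8, 582, and 572 CPM per NZB mouse, 1149, 1124, and 1029.8 per NZW mouse, and 866, 865, and 745 per NZBWF1 mouse. The 3 strains did not overlap, with NZBWF1 between its parents. NZB was lower than NZW (log2 fold change -0.89, SE 0.09, edgeR adjusted p = 5.01e-09). NZBWF1 differed from NZB (log2 fold change 0.47, SE 0.10, edgeR adjusted p = 0.00318) and from NZW (log2 fold change -0.42, SE 0.09, edgeR adjusted p = 0.0107), although the former did not pass without NZBWF1 mouse 2 (adjusted p = 0.0604), nor the latter without NZW mouse 1 or 2 or NZBWF1 mouse 3 (adjusted p = 0.0626 to 0.0993). Among cells without *Slc4a1* and *Alas2* UMIs the value between the parents was -0.79, and NZBWF1 against NZW did not pass (adjusted p = 0.0794). *Blvrb*, a reductase of the heme breakdown path that also marks these cells, passed between the parents (0.31, adjusted p = 0.0285), but not without NZB mouse 1, 2, or 3 or NZW mouse 2 or 3 (adjusted p = 0.0528 to 0.173), with the replicate block (0.0567), with at least 10 counts in every mouse (0.0521), or with free RNA subtracted (0.071). The other gene that was higher in NZB was *Hmox1*.

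Heme oxygenase 1 (*Hmox1*), which breaks heme open and releases its iron, was near the detection limit, at 7.21, 12.4, and 6.72 CPM per NZB mouse, 3.16, 4.83, and 0.96 per NZW mouse, and 6.95, 12.8, and 20.7 per NZBWF1 mouse. The NZW mice were below all others, and NZBWF1 mouse 3 was the highest. *Hmox1* passed in NZBWF1 against the mean of the parents (log2 fold change 1.5, SE 0.33, edgeR adjusted p = 0.0256), against NZW (2.28, adjusted p = 0.00126), and in NZB against NZW (1.56, adjusted p = 0.0301). The first did not pass without NZB mouse 1 or 3, NZW mouse 3, or NZBWF1 mouse 2 or 3 (adjusted p = 0.0603 to 0.591), the second without NZBWF1 mouse 3 (adjusted p = 0.0633), and the third without NZB mouse 2 or NZW mouse 1 or 3 (adjusted p = 0.0557 to 0.344). The first was also lost with the replicate block (0.067), with DESeq2, and with free RNA subtracted (0.576). The call against NZW was lost with free RNA subtracted (0.0546) and that between the parents with DESeq2 (0.229). Among cells with 0 UMIs of *Slc4a1* and *Alas2*, neither the call against the mean of the parents (0.157) nor that between the parents (0.212) passed. When progenitors with UMIs of *Elane*, *Mpo*, or *Cd74*, genes of other lineages, were left out, an alternative chosen after seeing the data, the difference between the parents was 0.81 and did not pass (adjusted p = 0.483), while NZBWF1 passed against NZB (1.59, 0.0266), the mean of the parents (2.0, 9.35e-04), and NZW (2.41, 4.43e-04). Macrophage markers in the progenitors were lowest in NZW as well. All 9 of these markers had UMIs in the progenitors, and their sum was 9.72 to 12.7 CPM in NZW, 17.3 to 43 in NZB, and 33.8 to 46.7 in NZBWF1. Among them, *Vcam1* (1.78, adjusted p = 0.0491) and *C1qa* (1.77, adjusted p = 0.00659) were higher in NZB than in NZW and *C1qb* (2.27, adjusted p = 0.0425) was higher in NZBWF1 than in NZW. *Vcam1* did not pass without NZB mouse 2 or 3 or NZW mouse 1, 2, or 3 (adjusted p = 0.0577 to 0.433), *C1qa* without NZB mouse 2 or NZW mouse 2 (adjusted p = 0.0962 to 0.12), or *C1qb* without NZB mouse 3, NZW mouse 1, 2, or 3, or NZBWF1 mouse 2 or 3 (adjusted p = 0.052 to 0.442), and none of the 3 passed with DESeq2 (0.351, 0.137, and 0.508). With the replicate block, *Vcam1* (0.0749) and *C1qb* (0.0592) did not pass. *Vcam1* was also lost among cells with 0 UMIs of *Slc4a1* and *Alas2* (0.0704) and with free RNA subtracted (0.214), and *C1qb* without the highest doublet scores (0.0958) and with *Car1* of at least 5 UMIs (0.0537). In the other barcodes of the same mice, the macrophage marker sum was 99.95 ± 22.95 CPM in NZB, 141 ± 14.1 in NZW, and 154 ± 23.7 in NZBWF1 (SD, n = 3 each). The part of macrophage RNA in the *Hmox1* values was not tested.

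**Figure D3:**
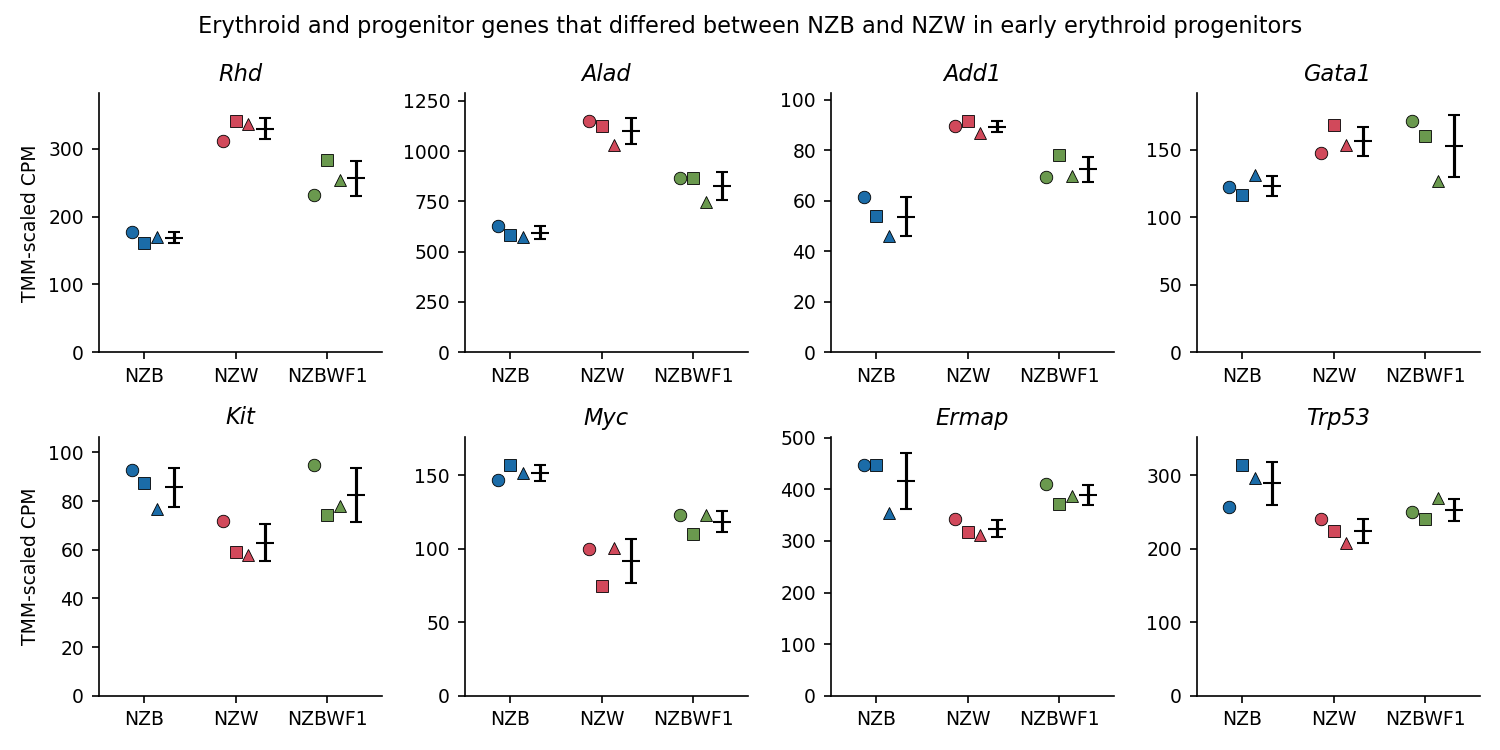
TMM-scaled CPM of 8 genes in early erythroid progenitors of each mouse (circle 1, square 2, triangle 3), with mean ± SD of 3 mice per strain. *Rhd*, *Alad*, *Add1*, and *Gata1* were lower and *Kit*, *Myc*, *Ermap*, and *Trp53* higher in NZB than in NZW.

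Transcription factors were compared next. Of erythroid transcription factors and cofactors, 1 of 28 tested genes passed the test as higher in NZB and 5 as lower (21.4% of the list in all, against 6.2% of all genes, median log2 fold change -0.01). The gene higher in NZB was *Myc*, at 147, 157, and 151 CPM per NZB mouse, 100.04, 74.5, and 100.3 per NZW mouse, and 123, 110.0, and 123 per NZBWF1 mouse. The NZB mice were the highest and did not overlap with NZW, and the NZBWF1 mice lay between (log2 fold change 0.76, SE 0.12, edgeR adjusted p = 9.55e-06). The 5 that were lower in NZB were *Gata1* (-0.35), *Runx1* (-0.98), a factor of stem cells and megakaryocytes, *Lyl1* (-0.66), *Klf13* (-0.49), and *Trim58* (-1.38), a ubiquitin ligase of late erythroblasts. Their edgeR adjusted p-values were 0.0402, 0.00174, 0.0214, 0.00792, and 0.011. *Gata1*, at 123, 116, and 131 CPM per NZB mouse, 147, 168, and 154 per NZW mouse, and 171, 161, and 127 per NZBWF1 mouse, did not pass without NZB mouse 1, 2, or 3 or NZW mouse 2 or 3 (adjusted p = 0.0504 to 0.279), nor among cells with 0 UMIs of *Slc4a1* and *Alas2* (0.108), without the highest doublet scores (0.0593), or without progenitors holding UMIs of *Elane*, *Mpo*, or *Cd74*, genes of other lineages (0.0589). *Lyl1* did not pass without NZB mouse 2 or NZW mouse 1 or 2 (adjusted p = 0.0691 to 0.264), among cells with 0 UMIs of *Slc4a1* and *Alas2* (0.0515), or with free RNA subtracted (just above 0.05). Nor did *Klf13* without NZB mouse 3 or NZW mouse 2 (adjusted p = 0.0703 to 0.0825), or *Trim58* without NZB mouse 2 (adjusted p = 0.0996). None of the 5 passed with DESeq2 (adjusted p = 0.275, 0.0524, 0.229, 0.0891, and 0.206 in the order above), and *Gata1* did not with the replicate block (0.0501).

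In the list of erythropoietin and cytokine signaling, 1 of 21 tested genes passed the test as higher in NZB and 0 as lower (4.76% of the list in all, against 6.2% of all genes, median log2 fold change 0.08). That gene was *Kit*, at 92.5, 87.6, and 76.8 CPM per NZB mouse, 71.6, 59.2, and 57.6 per NZW mouse, and 94.9, 74.1, and 78 per NZBWF1 mouse. NZB and NZW did not overlap, whereas NZBWF1 overlapped with NZB (log2 fold change 0.46, SE 0.13, edgeR adjusted p = 0.0218). *Kit* did not pass without NZB mouse 1 or 2 or NZW mouse 2 or 3 (adjusted p = 0.075 to 0.139), or among cells with 0 UMIs of *Slc4a1* and *Alas2* (0.0508), with DESeq2 (0.236), or without progenitors holding UMIs of *Elane*, *Mpo*, or *Cd74* (0.051). *Epor* was at 119, 127, and 111 CPM per NZB mouse, 115, 112, and 104 per NZW mouse, and 120.4, 103, and 113 per NZBWF1 mouse, with overlap of the strains (log2 fold change 0.12, SE 0.11, edgeR adjusted p = 0.655). *Adgrg1*, an adhesion receptor of stem cells, was at 4.81, 2.99, and 6.72 CPM per NZB mouse, 47.4, 38.7, and 48.5 per NZW mouse, and 25.5, 30.2, and 29.5 per NZBWF1 mouse. The NZB mice lay below all others, NZB against NZW gave a log2 fold change of -3.19, SE 0.26, edgeR adjusted p = 6.08e-12, and NZBWF1 against NZB gave 2.6, SE 0.29, edgeR adjusted p = 1.34e-07.

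Cell cycle and growth lists had called shares near or below that of all genes. For S phase and DNA replication, 1 of 38 tested genes passed the test as higher in NZB and 2 as lower (7.89% of the list in all, against 6.2% of all genes, median log2 fold change -0.11), for G2 and mitosis 0 and 2 of 35 (5.71%), and for ribosome biogenesis 0 and 1 of 35 (2.86%). The gene in the last list was *Polr1b*, a subunit of RNA polymerase I, at 14.4, 16.9, and 25.8 CPM per NZB mouse, 35.8, 40.7, and 37 per NZW mouse, and 44, 32.1, and 33.1 per NZBWF1 mouse (log2 fold change -0.95, SE 0.20, edgeR adjusted p = 0.00117), with all NZB mice below all others. The nucleotide enzyme gene *Rrm2* and the methylation maintenance gene *Uhrf1* were lower in NZB (-0.40 and -0.41, adjusted p = 0.0119 and 0.0216), as were the mitotic genes *Knstrn* and *Ckap2* (-0.44 and -0.66, adjusted p = 0.0449 and 0.0307). All 4 calls were lost without single libraries, as *Rrm2* did not pass without NZB mouse 1 or NZW mouse 2 (adjusted p = 0.0867 to 0.119), *Uhrf1* without NZB mouse 2 or 3 or NZW mouse 2 or 3 (adjusted p = 0.111 to 0.146), *Knstrn* without NZB mouse 1, 2, or 3 or NZW mouse 1 or 2 (adjusted p = 0.104 to 0.195), or *Ckap2* without NZB mouse 1, 2, or 3 or NZW mouse 2 or 3 (adjusted p = 0.0718 to 0.174). With DESeq2, *Uhrf1*, *Knstrn*, and *Ckap2* did not pass (0.202, 0.263, and 0.341). *Knstrn* was also lost among cells with 0 UMIs of *Slc4a1* and *Alas2* (0.111), with free RNA subtracted (0.0812), and without progenitors holding UMIs of *Elane*, *Mpo*, or *Cd74* (0.0509).

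Genes of survival and cell death were higher in NZB where they passed. In this list, 3 of 18 tested genes passed the test as higher in NZB and 0 as lower (16.7% of the list in all, against 6.2% of all genes, median log2 fold change 0.10). *Trp53*, the gene of the stress response factor p53, was at 257, 314, and 296 CPM per NZB mouse, 241, 225, and 208 per NZW mouse, and 250.04, 239.9, and 269 per NZBWF1 mouse. All NZB mice lay above all NZW mice, and the NZBWF1 mice overlapped with both. *Trp53* passed (0.39, adjusted p = 0.00649), as did the chaperone gene *Hspa8* (0.36, adjusted p = 0.0119). *Trp53* did not pass without NZB mouse 2 or NZW mouse 3 (adjusted p = 0.0843 to 0.0875), nor *Hspa8* without NZB mouse 1 or 2 or NZW mouse 2 or 3 (adjusted p = 0.0512 to 0.101). Of 24 antioxidant genes, 0 passed between the parents in edgeR and 0 in DESeq2, with 5 at an unadjusted edgeR p under 0.05. Of 4 tested globin genes, 0 passed between the parents with either tool, with 1 at an unadjusted edgeR p under 0.05.

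**Figure D4:**
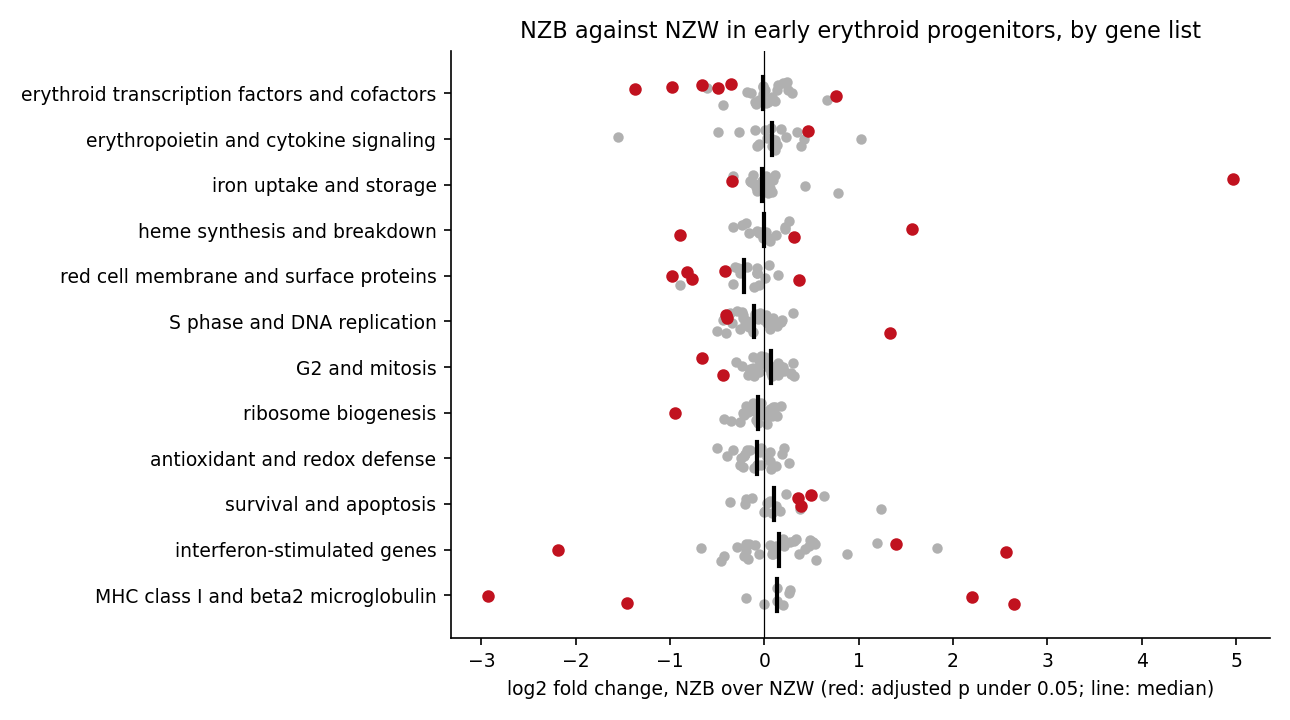
Log2 fold change of NZB over NZW for each tested gene of 12 lists in early erythroid progenitors, with genes past the test in red and the list median as a black line. Point heights within a list are spread at random, and the list medians lie between -0.21 and 0.16, with single genes far from them.

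Interferon-stimulated genes were listed because interferon is a feature of lupus. Of 36 tested, 2 were higher in NZB than in NZW and 1 lower (8.33% of the list, near the 6.2% of all genes, median log2 fold change 0.16). In NZBWF1 against the mean of its parents, 0 passed in edgeR, where 0.248% of all genes passed, and 0 in DESeq2. In that comparison, 6 were at an unadjusted edgeR p under 0.05, and the median was 0.07. *Ifitm2*, a membrane protein that restricts viral entry, was at 212, 192, and 266 CPM per NZB mouse, 1159, 971, and 929 per NZW mouse, and 528, 600.2, and 718 per NZBWF1 mouse. The strains did not overlap, and NZB was the lowest (log2 fold change -2.19, SE 0.12, edgeR adjusted p = 6.47e-13). *Apobec3*, a deaminase that acts on retroviruses, was at 178, 175, and 165 CPM per NZB mouse, 62.1, 66.5, and 66.7 per NZW mouse, and 137, 131, and 128 per NZBWF1 mouse, again without overlap (log2 fold change 1.39, SE 0.11, edgeR adjusted p = 2.29e-12). *Gbp7*, a guanylate-binding protein, was higher in NZB than in NZW as well (2.56, adjusted p = 7.18e-08). The 3 genes went in unlike directions, and each NZBWF1 mean lay between those of the parents.

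Of 11 tested MHC class I genes, 4 passed between the parents (36.4%, against 6.2% of all genes). *H2-T23* and *H2-T22* were lower in NZB than in NZW (-1.45 and -2.93, adjusted p = 1.80e-06 and 1.07e-05), and *H2-Q6* and *H2-Q7* were higher (2.65 and 2.2, adjusted p = 0.00347 and 2.58e-04). *H2-T23*, which encodes the Qa-1 molecule, was at 16.8, 13.9, and 14 CPM per NZB mouse, 48.4, 35, and 40.3 per NZW mouse, and 34.7, 37.8, and 43.1 per NZBWF1 mouse. The NZBWF1 mice overlapped with NZW and lay above NZB (NZBWF1 against NZB 1.44, SE 0.21, edgeR adjusted p = 3.53e-05). These genes belong to a family of near copies, and reads may be divided between its members. *H2-Q6* did not pass with DESeq2 (0.0586).

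In the list of iron uptake and storage, 1 of 23 tested genes passed the test as higher in NZB and 1 as lower (8.7% of the list in all, against 6.2% of all genes, median log2 fold change -0.02). The gene lower in NZB was *Pcbp2*, an RNA-binding protein that also carries iron (-0.34, adjusted p = 0.00912), which did not pass without NZB mouse 3 or NZW mouse 3 (adjusted p = 0.0531 to 0.0792). The gene higher in NZB was *Ftl1*, of the ferritin light chain, which has a near-identical copy. *Ftl1* (chr7:45457944-45459884) was at 2502, 2304, and 2172 CPM per NZB mouse, 52.7, 74.1, and 89.8 per NZW mouse, and 1424, 1053, and 1038 per NZBWF1 mouse. *Ftl1-ps1* (chr13:74399694-74407346), its copy, was at 10.8, 13.4, and 8.96 CPM per NZB mouse, 1833, 1875, and 1905 per NZW mouse, and 1104, 809, and 891 per NZBWF1 mouse. NZB counts fell almost wholly on *Ftl1* and NZW counts on *Ftl1-ps1*, and each NZBWF1 mouse had both. Each gene alone passed in all 4 comparisons, with 1.48 for *Ftl1* and 2.67 for *Ftl1-ps1* in NZBWF1 against the mean of the log2 values of the parents (adjusted p = 4.97e-08 and 1.44e-20). The sum of both was 2513, 2318, and 2181 CPM in NZB, 1886, 1949, and 1995 in NZW, and 2528, 1862, and 1929 in NZBWF1. NZBWF1 overlapped with both parents in the sum, which gave a log2 fold change of -0.02 (SE 0.09, edgeR adjusted p = 0.994) against the mean of the parents and 0.27 (SE 0.10, adjusted p = 0.127) between them. The sum was added after the values of the single genes had been seen. Ferritin heavy chain (*Fth1*) was at 6400.1, 6917, and 5910.5 CPM per NZB mouse, 6036, 5994, and 5967 per NZW mouse, and 6188, 5733, and 5354 per NZBWF1 mouse (NZBWF1 against the parents -0.11, SE 0.08, edgeR adjusted p = 0.898).

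**Figure D5:**
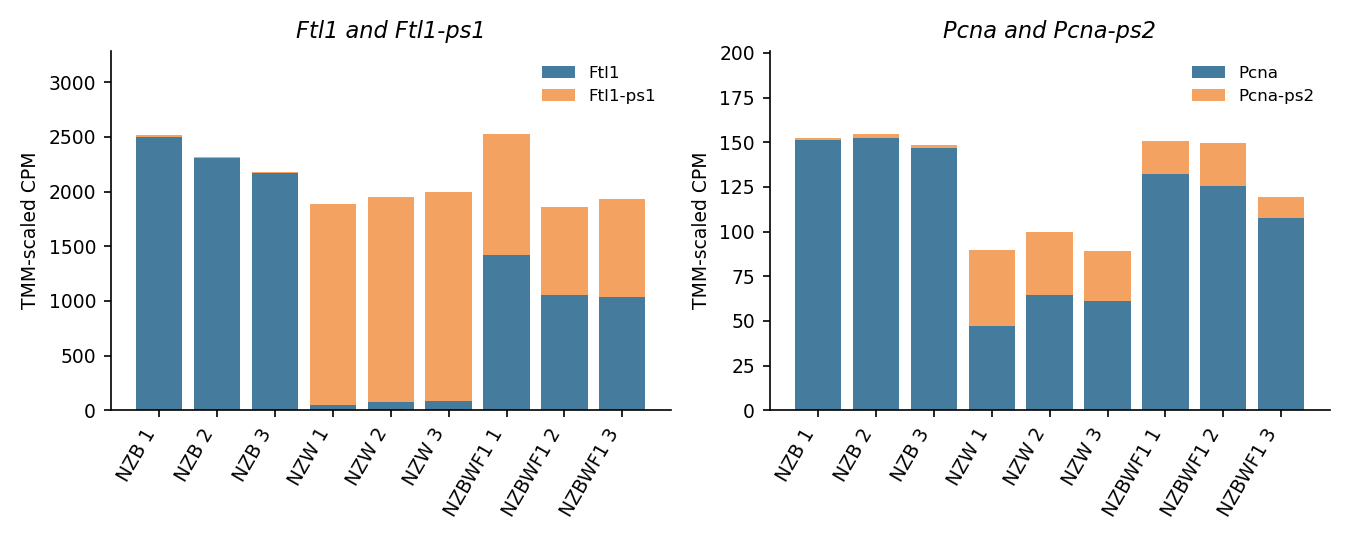
TMM-scaled CPM of *Ftl1* with its copy *Ftl1-ps1* (left) and of *Pcna* with its copy *Pcna-ps2* (right) in early erythroid progenitors, stacked for each of the 9 mice. The ferritin sums lie between 1862 and 2528 CPM in all strains, while the part on each copy differs by strain.

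*Pcna*, the sliding clamp of DNA polymerase, has a processed pseudogene, *Pcna-ps2*, that was counted as well. *Pcna* was at 151, 152, and 147 CPM per NZB mouse, 47.4, 64.5, and 61.5 per NZW mouse, and 132, 126, and 107 per NZBWF1 mouse, and *Pcna-ps2* at 1.2, 2.49, and 1.68 CPM per NZB mouse, 42.1, 35.5, and 27.8 per NZW mouse, and 18.5, 24.1, and 11.8 per NZBWF1 mouse. NZW had the least *Pcna* and the most *Pcna-ps2*. Their sum was 153, 155, and 148 CPM in NZB, 89.5, 99.9, and 89.3 in NZW, and 150.5, 149.7, and 119 in NZBWF1, and all NZB mice still lay above all NZW mice. The sum was added after the values were seen and was not tested. *Pcna* was higher in NZB than in NZW (log2 fold change 1.33, SE 0.12, edgeR adjusted p = 1.01e-10) and *Pcna-ps2* lower (log2 fold change -4.08, SE 0.36, edgeR adjusted p = 5.67e-11). The ribosomal protein genes *Rps3a1* (1.33, adjusted p = 2.07e-13) and *Rps2* (-0.99, adjusted p = 1.11e-10) and the tropomyosin copy *Tpm3-rs7* (4.21, adjusted p = 3.09e-15) also differed. Near copies of these genes exist in the mouse genome, and whether reads were divided between copies was not examined.

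Some genes were nearly absent in 1 parent. *BC023719*, an antisense transcript (chr17:36111426-36117121), had 225 UMIs in NZB, 138 in NZBWF1, and 0 in NZW, and was at least 87.3-fold higher in NZB against a floor of 3 UMIs over the strain. *Lefty1*, a secreted inhibitor of nodal signaling, had 0 UMIs in NZB, 195 in NZW, and 81 in NZBWF1, and was at least 55.8-fold higher in NZW. *Gm15915*, an antisense transcript (chr10:93674218-93683322), had 411 UMIs in NZB and 2 in NZW, a ratio of 239 (95% interval 65.8 to 1982) with a counting interval. For *Htatip2* the UMIs were 129 and 3 in the same order, with a ratio of 50.1 (95% interval 16.8 to 246), and for *Nln* 1 and 88. Fitted values of such genes are not read as sizes.

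The 15 genes of smallest p between the parents were *Ftl1-ps1*, *Gm15915*, *Hist1h4i*, *Ftl1*, *BC023719*, *Tpm3-rs7*, *Gm11837*, *Ugt8a*, *Lefty1*, *Rps3a1*, *Slc29a1*, *Paqr9*, *Acyp2*, *Ifitm2*, and *Apobec3*. The study itself named genes for these mice in these or other cell types, and 13 of them were tested. Of these, 8 were higher and 4 lower in NZB than in NZW (92.3%, against 6.2% of all genes). In NZBWF1, 9 were higher and 0 lower than in the mean of the parents (69.2%, against 0.248% of all genes). The study chose them on these samples, so their count is not independent evidence. *Slc29a1*, an equilibrative nucleoside transporter that the red cell lineage expresses, was at 60.1, 49.3, and 67.2 CPM per NZB mouse, 204, 221, and 171 per NZW mouse, and 148, 129, and 121 per NZBWF1 mouse. The strains did not overlap (log2 fold change -1.77, SE 0.13, edgeR adjusted p = 2.07e-13).

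The question of the hybrid was whether NZBWF1 cells lay outside the range of both parents. As a description, the NZBWF1 mean was between the parent means for 476 of the 525 genes that differed between the parents (90.7%). These genes were chosen by the gap between the parents, which makes a mean between them likely. The share over all genes was not counted. No gene passed in the same direction against both parents (0 of 8472 in edgeR and 0 in DESeq2, with 92 and 33 genes at an unadjusted p under 0.05 in the same direction against both), whereas 30 passed in opposite directions. This count of 0 depended on the processing. It was 13 without a filter beyond 1 count, and 0 to 6 when each mouse was left out in turn, with 6 without NZBWF1 mouse 1. It was 2 with the replicate block (*Hbb-bt* and *Tbcd*), 2 without progenitors holding UMIs of *Elane*, *Mpo*, or *Cd74* (*Hmox1* and *Vps13c*), 1 without the highest doublet scores (*Vps13c*), 1 with *Car1* of at least 2 UMIs (*Tbcd*), and 0 under the other alternatives. These genes were named after their values were seen. Among listed genes, *Pcna* (1.0, adjusted p = 9.00e-07) and *Apobec3* (0.99, adjusted p = 1.22e-07) were higher in NZBWF1 than in NZW, and *Ifitm2* was lower than in NZW (-0.71, adjusted p = 7.78e-04) and higher than in NZB (1.48, adjusted p = 1.78e-08). Against the mean of the parents, 19 genes were higher in NZBWF1 and 2 lower. The mean of the parents was taken on the log2 scale, where a gene nearly absent in 1 parent has a very low mean. The 15 of smallest p were *Ftl1-ps1*, *Gm15915*, *BC023719*, *Ftl1*, *Hist1h4i*, *Gm11837*, *Lefty1*, *Acyp2*, *Snrpn*, *1700097N02Rik*, *Cpd*, *Nln*, *Htatip2*, *Vps13c*, and *1700006J14Rik*, and many of these are the copies and near-absent genes described above.

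Few of the 21 had NZBWF1 values beyond those of both parents in each mouse. *Tbcd*, a tubulin folding cofactor, was at 38.5, 40.3, and 32.5 CPM per NZB mouse, 42.1, 40.7, and 31.7 per NZW mouse, and 67.1, 54.3, and 56.7 per NZBWF1 mouse, and every NZBWF1 mouse lay above every parent mouse (log2 fold change 0.62, edgeR adjusted p = 0.0473). *Cpd*, a carboxypeptidase, was at 19.2, 20.4, and 22.4 CPM per NZB mouse, 21.1, 39.1, and 40.8 per NZW mouse, and 16.2, 12.8, and 11.2 per NZBWF1 mouse, and *Vps13c*, a lipid transfer protein, at 57.7, 53.2, and 74.5 CPM per NZB mouse, 45.3, 42.3, and 62.9 per NZW mouse, and 44, 30.7, and 28.3 per NZBWF1 mouse. All NZBWF1 mice were below all parent mice for *Cpd* (log2 fold change -1.12, adjusted p = 0.0113), while for *Vps13c* NZBWF1 mouse 1 overlapped with NZW (-0.83, adjusted p = 0.012). *Snrpn* had 0 UMIs in NZB, 19 in NZW, and 30 in NZBWF1. It is known as an imprinted gene expressed from the paternal copy, which in the cross as described is that of NZB, and which copy was read in NZBWF1 was not examined. *Cpd* did not pass without NZBWF1 mouse 2 or 3 (adjusted p = 0.217 to 0.229), nor *Vps13c* without NZW mouse 3 or NZBWF1 mouse 2 or 3 (adjusted p = 0.0884 to 0.295). *Tbcd* was singled out after its values were seen, its adjusted p was 0.0358 to 0.271 when each mouse was left out in turn, and it did not pass with DESeq2, with RLE scaling (0.0532), with at least 10 counts in every mouse (0.0655), without the highest doublet scores (0.0578), with at least 2000 UMIs per barcode (0.0506), among cells with 0 UMIs of *Slc4a1* and *Alas2* (0.123), without progenitors holding UMIs of *Elane*, *Mpo*, or *Cd74* (0.105), or with the ferritin pair summed (0.0525). *Cpd* and *Vps13c* did not pass with DESeq2 either, which called 9 genes higher and 0 lower.

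The parent difference was then set against that in the remaining cells of the same mice. In a joint fit with the mouse as a block, 625 of 11528 genes (5.42%) had a difference between NZB and NZW in the early progenitors that was unlike the difference in the other kept barcodes. The other barcodes are a mixture whose makeup differed by strain, with B-cell markers at 553 ± 158 CPM in NZB and 2229 ± 248 CPM in NZW (SD, n = 3), and the part of this in the 625 genes was not tested. The later erythroblasts alone were far fewer, at 20 to 140 barcodes per mouse, against 37703 other barcodes in all. Against them, 3 of 7710 genes passed. These were *Ifitm2* (1.5 on the log2 scale, edgeR adjusted p = 0.00477), the ornithine decarboxylase gene *Odc1* (0.51, adjusted p = 0.00556), and the linker histone gene *H1f0* (2.18, adjusted p = 8.22e-04). *Odc1* and *H1f0* were singled out after their values were seen, and later erythroblasts were added as a comparison after the first result. Genes that did not pass against this smaller set are not shown to differ alike in early and later cells.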

How the data were processed

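Single cell suspensions of femur marrow were sequenced with the 10x Genomics 3′ v3.1 chemistry, 1 library per mouse. Per the labels and the methods of the study, the authors made the deposited UMI counts with bcl2fastq 2.20 and Cell Ranger 3.1.0 on mm10 and aggregated the 9 libraries. The gene annotation and any downsampling of reads at aggregation are not given in the sources used here. Each barcode ends in a number, and this was read as the row of the aggregation table that names its library. The filtered count matrix held 68444 barcodes. Those with 1000 or more UMIs, 500 or more genes, and no more than 10% mitochondrial UMIs were kept, which left 39051.

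Raw counts of the early erythroid progenitors were summed per mouse and tested with edgeR 4.0.16 (TMM, filterByExpr, robust quasi-likelihood F-test, Benjamini-Hochberg adjustment over all tested genes, threshold 0.05) under R 4.3.3, with all 9 mice in 1 fit. The parent mean was the mean of the fitted log2 values. Strain values in comparisons are TMM-scaled CPM; levels by stage and marker sums are plain CPM. Shares were compared by two-sided exact permutation of mice in Python 3.11.15 with scipy 1.17.1. DESeq2 1.42.0, RLE scaling, other filters, a replicate block, and each mouse left out were alternatives, as were other limits of the rule. Doublets were not removed for the main values. A caller written in Python, which scores each barcode against simulated pairs, marked 1458 kept barcodes (3.73%), and leaving these out was an alternative. Of the kept barcode sequences, 170 occurred in more than 1 library. Free RNA was estimated from barcodes under 100 UMIs of the unfiltered matrix. In a simulation of NZBWF1 against the mean of its parents on 8342 genes, edgeR recovered 104 of 106 genes changed by a log2 value of 1 and 93 of 94 changed by 2, and called 7 others. The changed genes were drawn only from those above a minimum mean CPM, and both parents were given the same levels. Recovery of changes in low genes was therefore not simulated.

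The cells, the gene lists, and the tests were chosen with earlier results of these data known. Genes were named when they were list members past the threshold, at most 6 per list and comparison, among the 15 of smallest p in a comparison, called against both parents, named in the study, rule or marker genes, among the 20 most raised in the cells, or among the 8 of smallest p for the difference from other cells. Of 31053 gene identifiers, 30934 matched GENCODE vM21, whose GRCm38 coordinates are given. Promoter sequences are from RefSeq. Some genes that met these rules are not reported here.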

Additional observations from a re-analysis of the deposited data

Results flagged for a closer look

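For 8 genes, the difference between NZB and NZW in the early erythroid progenitors was unlike that in the other kept barcodes of the same mice (edgeR interaction with the mouse as a block, each among the smallest p-values of 11528 genes). *Ctsl*, a lysosomal protease, averaged 45.8 CPM in NZB and 106 in NZW among the progenitors, and 181 and 65.1 in the other barcodes (adjusted p = 4.23e-30). *Trib2*, a pseudokinase, averaged 34.5 and 31.9 CPM in the progenitors and 3.44 and 50.7 in the other barcodes (adjusted p = 1.32e-21). *Bst2*, a viral restriction factor, averaged 33.6 and 45.9 CPM against 340.2 and 138 (adjusted p = 1.38e-14). *Golm1* averaged 22.4 and 59.4 CPM against 20.6 and 12.8 (adjusted p = 3.39e-13), and *Cdk2ap2* 105 and 128 against 401 and 226 (adjusted p = 6.18e-12).

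*Ifitm2* and *Apobec3* went the same way in both sets of cells, but to another degree. *Ifitm2* averaged 205 CPM in NZB and 938 in NZW among the progenitors, and 709 and 1314 in the other barcodes (adjusted p = 1.89e-14). *Apobec3* averaged 159 and 59.97 CPM against 201 and 31.8 (adjusted p = 1.03e-11). *Plxdc1* was listed at 0 in the NZW progenitors and averaged 15.8 CPM in those of NZB, against 25.4 and 10.7 in the other barcodes of NZW and NZB (adjusted p = 3.89e-20). Against later erythroblasts alone, in place of all other barcodes, 7 of these 8 genes did not pass (adjusted p = 0.457 to 0.998), and *Ifitm2* passed with the opposite sign (1.5 on the log2 scale, adjusted p = 0.00477). That fit rested on 20 to 140 later erythroblasts per mouse, and the SE of each of the 8 genes was larger in it, as for *Ctsl* (0.407 against 0.145). The cell types among the other barcodes differ between the strains, and their part in these differences was not tested.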

How the results depend on the processing

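Against the mean of the parents, NZBWF1 differed in 21 genes, in 9 with DESeq2, in 52 without a filter beyond 1 count, in 3 with at least 10 counts in every mouse, and in 11 to 26 when each mouse was left out in turn. The parents differed in 525 genes, in 264 with DESeq2, in 341 with at least 10 counts in every mouse, and in 348 to 615 without single mice, with 348 without NZW mouse 2. NZBWF1 against NZB gave 115 genes, 43 with DESeq2, 56 with at least 10 counts, 75 with free RNA subtracted, and 54 to 117 without single mice. NZBWF1 against NZW gave 96 genes, 42 with DESeq2, 157 without a filter, 36 with at least 10 counts, and 55 to 122 without single mice. The causes of these shifts were not tested, except that the stricter filter left 5091 genes to test in place of 8472. The difference from other cells gave 625 genes, 343 to 671 without single mice, and 3 with the far fewer later erythroblasts in place of all other cells, where *Ifitm2* turned and passed (1.5 on the log2 scale). *Bst2* (0.0799, adjusted p = 0.997), *Ctsl* (0.12, 0.996), and *Trib2* (-1.3, 0.838) had values of the other sign that did not pass, and *Golm1*, *Apobec3*, *Cdk2ap2*, and *Plxdc1* did not pass there either. With the replicate block, the 4 comparisons, in the order given above, had 25, 546, 120, and 93 genes. In gene expression, same-numbered mice deviated together with correlations of -0.143 to 0.122, and mice of unlike number with -0.173 to 0.153. These correlations do not show whether same-numbered mice shared handling, and the main tests left the numbers out. The share of early progenitors had the same order of mouse numbers in each strain. So had the dividing share of T-cell barcodes after thinning. That share was 4.85%, 17.7%, and 6.35% for NZB mice 1 to 3, 7.34%, 17.4%, and 8.3% for NZW, and 3.45%, 12.2%, and 9.39% for NZBWF1. Median UMIs per progenitor were lowest in mouse 2 of each strain (7669, 10924, and 9291.5). The exact permutation p for the share of early progenitors was 0.179 to 0.564, and that for the share of dividing cells 0.332 to 0.989, without single mice. Over the single named genes and all alternatives, 7672 values kept their side of the threshold, 310 no longer passed, and 105 passed only under the alternative. A further 4 changed sign with a call in the main fit or the alternative. Sign changes without a call in either fit were counted among the 7672, as were genes that passed in neither fit. The 7672 are therefore not a share of calls kept. Among single calls against the mean of the parents, that of *Ftl1* was lost under 0 alternatives and that of *H2-T23* under 14. With 31 progenitors in NZBWF1 mouse 1, low genes of that mouse rest on few UMIs.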
